A study of Mus musculus with 4 samples.

Results

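The vomeronasal receptor genes were examined in ELF1 chromatin immunoprecipitation and sequencing (ChIP-seq) data from mouse macrophages. A peak, a stretch where the authors' peak caller found more fragments in the immunoprecipitate (IP) than in the input, was taken as a receptor peak when it lay on chromosomes 1 to 19 and its nearest gene, or any gene feature that the authors listed for it, had a symbol starting with Vmn1r or Vmn2r. This gave 65 receptor peaks in the wild-type (WT) list and 49 in the Elf1 knockout (KO) list, 114 of the 10405 peaks on chromosomes 1 to 19 and of the 11085 peaks of the series. The nearest gene was a receptor for 61 WT and 47 KO peaks, and the remaining 4 and 2 were taken through a listed feature. The members were chosen by the positions of the called peaks in these same 2 lists, so the counts below are a description and support nothing beyond them.

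The cells were macrophages grown from bone marrow of WT or Elf1 KO mice, and both genotypes were treated for 6 h with lipopolysaccharide (LPS), the bacterial cell wall component that activates macrophages. Each genotype gave 1 IP library with an ELF1 antibody and 1 input library, 4 samples in all. The labels give no strain, sex, age, number of mice or description of the knockout allele, and no untreated cells were analysed here. With 1 library for each genotype there is no replicate, so no difference between WT and KO has a test. All intervals below are 95% intervals that cover counting error only. Peak lists hold no RNA or protein measurement, so neither the loss of ELF1 nor the macrophage identity was checked through markers, and the depth of the libraries is unknown.

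Vomeronasal receptors are G protein-coupled receptors of the sensory neurons of the vomeronasal organ, a chemosensory structure of the nasal cavity that detects pheromones and other social cues. The Vmn1r receptors have a short extracellular end, are encoded largely in 1 coding exon and are carried by neurons that use the G protein subunit Gnai2. The Vmn2r receptors have a long extracellular domain, span several exons and are carried by neurons that use Gnao1. Both families expanded by tandem duplication, lie in dense arrays rich in repeats and pseudogenes, and each neuron is thought to express few of them. ELF1 is a transcription factor of the ETS family, whose members bind DNA around a GGAA core. Macrophages are not the cells in which these receptors are known to act.

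A set of 6 peak sequences is shown because they carry a contrast that runs through the receptor peaks. A peak can lie in sequence with no near-identical copy, by the measure given below, or in sequence repeated across a receptor array. Other receptor peaks, not printed here, have copies spread through the genome. All are GRCm38 (mm10) reference sequence, plus strand, 5′ to 3′, and capitals mark each GGAA core or its other strand TTCC. The first lies before the start of Vmn1r157 and the second inside the coding exon of Vmn1r123, both WT peaks in the chromosome 7 Vmn1r array. The third, over the first coding bases of Vmn1r215, and the fourth, upstream of Vmn2r81, are WT peaks with no near-identical copy. The fifth, upstream of Vmn1r100, and the last, in an intron of Vmn2r120, are KO peaks with and without copies.
Vmn1r157 WT chr7:22761297-22761530: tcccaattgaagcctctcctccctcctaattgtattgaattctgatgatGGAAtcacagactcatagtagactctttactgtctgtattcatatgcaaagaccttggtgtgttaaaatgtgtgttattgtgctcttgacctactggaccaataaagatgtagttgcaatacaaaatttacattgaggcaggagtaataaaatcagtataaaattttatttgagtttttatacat
Vmn1r123 WT chr7:21162490-21162705: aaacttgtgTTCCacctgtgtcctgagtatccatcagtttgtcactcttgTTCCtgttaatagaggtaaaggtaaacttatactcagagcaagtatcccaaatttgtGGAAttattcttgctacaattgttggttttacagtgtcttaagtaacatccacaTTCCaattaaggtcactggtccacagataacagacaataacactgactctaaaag
Vmn1r215 WT chr13:23075787-23076051: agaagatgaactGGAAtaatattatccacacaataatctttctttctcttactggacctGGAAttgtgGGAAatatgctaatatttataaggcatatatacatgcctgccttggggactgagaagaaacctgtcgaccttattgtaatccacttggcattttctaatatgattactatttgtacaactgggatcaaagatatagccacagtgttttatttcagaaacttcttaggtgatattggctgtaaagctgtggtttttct
Vmn2r81 WT chr10:79227051-79227312: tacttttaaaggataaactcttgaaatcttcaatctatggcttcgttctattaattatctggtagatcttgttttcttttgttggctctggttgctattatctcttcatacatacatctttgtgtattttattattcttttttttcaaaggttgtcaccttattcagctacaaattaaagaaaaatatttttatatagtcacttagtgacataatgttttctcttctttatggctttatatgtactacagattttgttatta
Vmn1r100 KO chr7:20410001-20410224: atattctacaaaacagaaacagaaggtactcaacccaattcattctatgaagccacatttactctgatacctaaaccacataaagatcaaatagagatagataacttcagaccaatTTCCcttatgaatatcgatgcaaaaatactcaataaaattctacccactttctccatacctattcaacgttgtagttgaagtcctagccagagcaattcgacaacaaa
Vmn2r120 KO chr17:57526480-57526716: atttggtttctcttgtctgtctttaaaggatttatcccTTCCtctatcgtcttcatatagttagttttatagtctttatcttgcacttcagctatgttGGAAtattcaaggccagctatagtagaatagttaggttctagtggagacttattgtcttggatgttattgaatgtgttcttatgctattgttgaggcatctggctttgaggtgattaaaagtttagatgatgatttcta

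Peaks of both lists were low, and the receptor peaks were no lower than the rest. The pileup, the number of fragments over the summit, ranged from 5 to 10 in WT with a median of 7, and 51 of 65 peaks had 5 to 7 fragments. In KO the pileup ranged from 5 to 59 with a median of 7, and 29 of 49 peaks had 5 to 7. Over all autosomal peaks the median was 6 in WT and 7 in KO. A pileup of at most 8 was found in 86.2% of WT and 83.7% of KO receptor peaks, and in 90.6 and 88.3% of all autosomal peaks. The authors' fold enrichment over the local input background ran from 2.85 to 4.999 in WT, with a median of 3.50 (interval 3.46 to 3.84), and the median over all autosomal WT peaks was also 3.50. In KO it ran from 2.11 to 4.88 with a median of 3.44 (3.42 to 3.87), beside 3.42 for all autosomal KO peaks. Within each list the medians of the receptor peaks and of all autosomal peaks were thus close. The background recovered from pileup and fold had a median of 1.014 fragments in WT and 1.092 in KO receptor peaks. The lowest values over all autosomal peaks were 1.0 and 1.049, so at many peaks the fold largely restates the pileup. At a q-value, the false discovery rate of the peak caller, below 0.05 stood 5 of 65 WT receptor peaks (7.69%, 2.55 to 17.1%) and 5 of 49 KO receptor peaks (interval 3.40 to 22.2%). The corresponding shares of all autosomal peaks were 5.16% in WT and 5.73% in KO, within both intervals.

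In the WT list those 5 were the peaks of Vmn2r77, Vmn1r215, Vmn2r81, Vmn1r157 and Vmn2r116. The Vmn2r77 peak (chromosome 7, 86802170 to 86802442) had a pileup of 9 and a fold of 4.999, and spanned an exon border 7279 bp after the gene start. The Vmn1r215 peak, printed above, had the same pileup and fold, and 260 of its 265 bases were coding in the GENCODE M21 annotation. The Vmn2r81 peak had a pileup of 9 and a fold of 4.90 and lay 20510 bp upstream of the start. The Vmn1r157 peak had a pileup of 10 and a fold of 4.80 at 283 bp before the start. The Vmn2r116 peak (chromosome 17, 23373464 to 23373694) had a pileup of 10 and a fold of 4.68, 11223 bp upstream. Vmn2r116 encodes the receptor known for binding the male pheromone ESP1 (exocrine gland-secreting peptide 1). None of the 5 had a KO peak overlapping it. The next WT peaks by fold, at 4.499 to 4.08, belonged to Vmn1r78, Vmn2r-ps59, Vmn2r100, Vmn1r101 and Vmn1r117.

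In the KO list the 4 highest folds all passed the same q. Vmn2r-ps25, a pseudogene, had a pileup of 9 and a fold of 4.88 at 13037 bp upstream of its start, in sequence that was 100% repeat-masked in the reference. Vmn1r-ps73, also a pseudogene, had a pileup of 9 and a fold of 4.88 at 11792 bp after its start, again 100% masked. Vmn2r120 had a pileup of 9 and a fold of 4.73, and Vmn1r100 a pileup of 11 and a fold of 4.72. The fifth peak with q below 0.05 was of another kind. It lay near Vmn1r-ps151 at the centromeric end of chromosome 18, with a pileup of 59 and the lowest fold of all receptor peaks, 2.11. The input background recovered from its pileup and fold was 27.5 fragments, while the median over KO receptor peaks was 1.09. The other KO peaks among the 10 of highest fold, each with a pileup of 8 and a fold of 4.39, belonged to Vmn2r-ps36, Vmn2r-ps46, Vmn1r114, Vmn2r58, Vmn1r226 and Vmn2r114.

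The receptor genes themselves set the scale for the positions. GENCODE M21 places 561 of them on the autosomes, 326 Vmn1r and 235 Vmn2r, and 232 carry a pseudogene symbol (41.4%). Of these genes, 545 fell into 24 arrays, here meaning at least 3 receptor genes with neighbours no more than 1 Mb apart, which cover 30.6 Mb. Of the receptor peaks, 62 WT and 46 KO peaks lay inside an array and 3 of each list outside. By chromosome, number 7 held 28 WT and 23 KO receptor peaks beside 240 receptor genes, and chromosome 17 held 13 and 12 beside 76 genes. Chromosome 6 held 11 WT and 7 KO peaks beside 92 genes. Chromosome 13, with 82 genes, held 2 WT peaks and no KO peak. Chromosome 10 held 5 WT peaks and no KO peak, chromosome 5 held 5 and 1, and chromosome 3 held 1 and 2. On chromosome 18 there were 3 KO peaks and no WT peak, and on chromosome 4 there was 1 KO peak. The other chromosomes with receptor genes, 1, 2, 8, 14 and 16, held none, and each of them carries 1 to 6 receptor genes.

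Receptor genes were next compared with all genes by how often they were the nearest gene of a peak. In WT 56 of 561 receptor genes were nearest to a peak (9.98%, 7.63 to 12.8%), beside 8.39% of all 51229 autosomal genes. In KO there were 43 (7.67%, 5.60 to 10.19%), beside 8.21% of all genes, and both intervals include the share of all genes. Within WT the Vmn2r genes stood above it, 31 of 235 (13.2%, 9.14 to 18.2%), as did the receptor genes without a pseudogene symbol, 40 of 329 (12.2%, 8.83 to 16.2%). Vmn1r genes did not, with 25 of 326 in each list (7.67%, 5.02 to 11.1%), nor did Vmn2r genes in KO, with 18 of 235 (7.66%, 4.60 to 11.8%). Vmn2r genes are long, and the part of gene length in these shares was not tested. Counting listed features as well, 103 receptor genes had a receptor peak, 94 of them just 1. Vmn1r101 and Vmn2r82 had 3 each. Vmn1r101, a chromosome 7 gene, had 2 WT peaks at 11187 and 9598 bp after its start and 1 KO peak at 6275 bp. All 3 Vmn2r82 peaks, on chromosome 10, were WT peaks, 2 upstream by 32224 and 24023 bp and 1 in an intron at 10511 bp.

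Counting every peak inside the arrays, whatever its nearest gene, gave 101 WT peaks or 3.30 per Mb (2.69 to 4.01) and 91 KO peaks or 2.97 per Mb (2.39 to 3.65). The autosomes as a whole had 2.15 WT and 2.08 KO peaks per Mb, so the arrays held 1.54 times (1.25 to 1.87) the autosomal density in WT and 1.43 times (1.15 to 1.76) in KO. Arrays of olfactory receptor genes, another expanded sensory receptor family, built in the same way, held 2.58 WT and 2.86 KO peaks per Mb. The ratio of vomeronasal to olfactory arrays was 1.28 (0.953 to 1.72) in WT and 1.04 (0.771 to 1.39) in KO, and both intervals include equal density. The vomeronasal arrays are 52.6% repeat-masked and the olfactory arrays 45.3%, against 33.5% of the autosomes, and the part of this difference in the densities was not tested.

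A single array held 28 of the 91 KO peaks. The chromosome 7 Vmn1r array (chromosome 7, 20099680 to 24063554, 78 genes, all Vmn1r, 64.0% masked) held 17 WT peaks, 4.29 per Mb (2.498 to 6.87), and 28 KO peaks, 7.06 per Mb (4.69 to 10.21). Without it, the KO density in the arrays was 2.36 per Mb, 1.14 times the autosomal value (0.872 to 1.46), still above it but with an interval that includes equal density. The array was singled out for its high KO density. The WT density without it was 3.15 per Mb, 1.47 times (1.17 to 1.82). The input background under its peaks was above that of the autosomes. The median recovered background was 1.17 fragments in WT and 1.33 in KO, where the medians over all autosomal peaks were 1.03 and 1.05. Other receptor arrays had medians as high or higher: 1.70 in WT and 1.33 in KO for the chromosome 4 array of 6 Vmn2r pseudogenes, and 1.96 in KO for the chromosome 10 array of 5 Vmn2r genes. The part of that background in the counts was not tested.

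**Figure D1:**
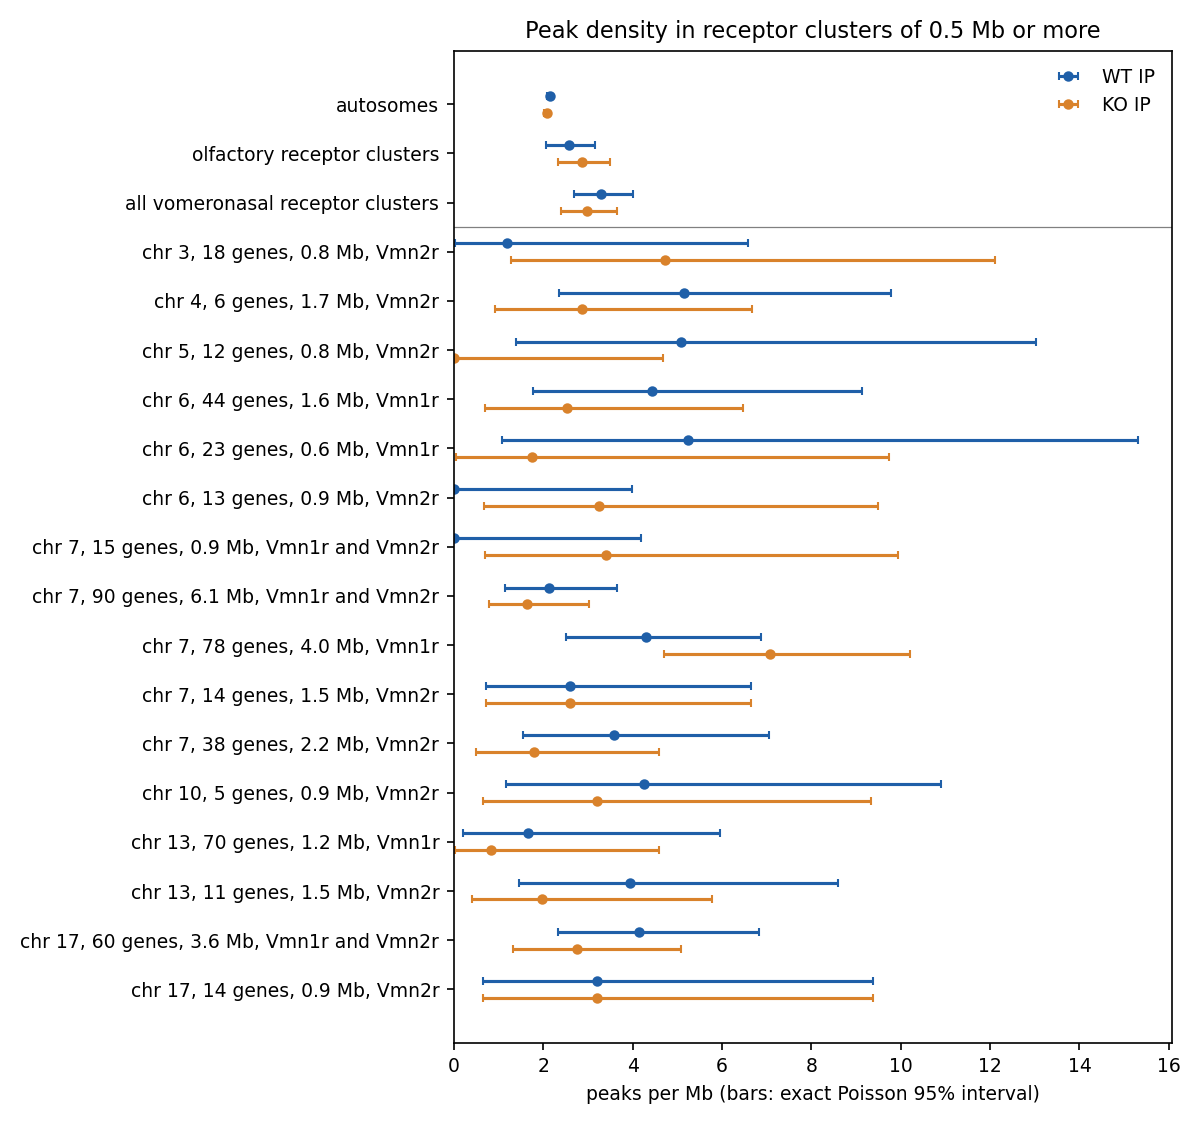
Peaks per Mb with exact Poisson 95% intervals for the autosomes, the olfactory receptor arrays, all vomeronasal receptor arrays and each vomeronasal array of at least 0.5 Mb (WT blue, KO orange). The KO point of the chromosome 7 array of 78 genes, at 7.06 per Mb, stands highest among the KO points, and most other intervals span the autosomal densities of 2.15 and 2.08.

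Among the 24 arrays, 16 held peaks of both lists and 4 held none of either. The interval lay above the autosomal density in 4 arrays in WT and in 2 in KO, and below it in none. The largest array, on chromosome 7 with 46 Vmn1r and 44 Vmn2r genes over 6.09 Mb, held 13 WT peaks (2.13 per Mb) and 10 KO peaks (1.64 per Mb), fewer per Mb in KO than the autosomes as a whole, though both intervals include the autosomal density. The chromosome 13 array of 70 Vmn1r genes in 1.21 Mb held 2 WT peaks, 1.65 per Mb (0.20 to 5.96). It held 1 KO peak, 0.825 per Mb (0.0209 to 4.60), and both intervals include the autosomal density. The chromosome 17 array of 24 Vmn1r and 36 Vmn2r genes held 15 WT peaks, 4.14 per Mb (2.32 to 6.83), and 10 KO peaks, 2.76 per Mb (1.33 to 5.08), and the 2 intervals overlap. The chromosome 6 array of 44 Vmn1r genes held 7 WT and 4 KO peaks.

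**Figure D2:**
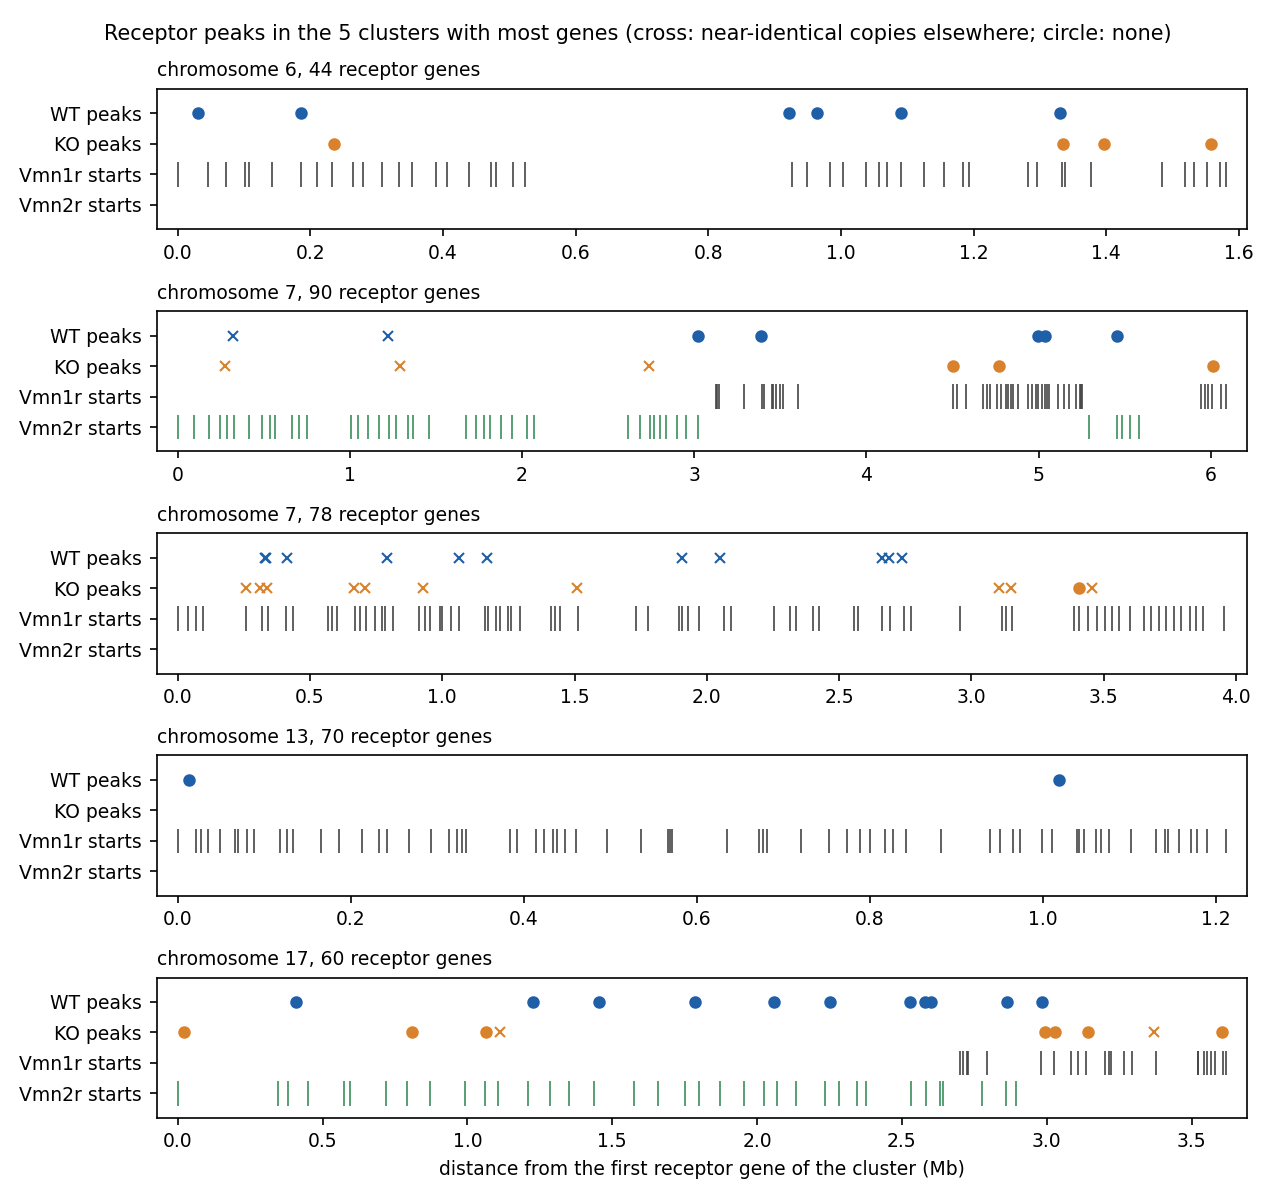
Receptor peaks and receptor gene starts along the 5 arrays with most genes, by distance in Mb from the first receptor gene (WT peaks blue, KO peaks orange, Vmn1r starts grey, Vmn2r starts green). Crosses mark peaks with a near-identical copy elsewhere and circles peaks with none: in the chromosome 7 array of 78 genes all but 1 of the receptor peaks are crosses.

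The families divided differently in the 2 lists. WT had 28 Vmn1r and 37 Vmn2r peaks, a Vmn1r share of 43.1% (30.9 to 56.0%), and KO had 30 and 19, a share of 61.2% (46.2 to 74.8%). The intervals overlap, and this difference between 1 library and 1 library was not tested. Vmn1r genes make up 58.1% of the annotated receptor genes but 40.4% of the array length, counted by the nearest receptor start. The median Vmn1r gene spans 1230 bp and the median Vmn2r gene 18787 bp, and the part of gene length in that share was not tested. Per Mb of array nearest to each family, WT had 3.15 peaks at Vmn1r and 3.39 at Vmn2r genes, a Vmn2r to Vmn1r ratio of 1.08 (0.710 to 1.65). In KO the densities were 4.04 and 2.24, a ratio of 0.555 (0.358 to 0.857). Without the chromosome 7 Vmn1r array, the KO ratio was 0.858 (0.499 to 1.51) and the WT ratio 1.30 (0.786 to 2.22), both intervals then including 1. The KO ratio was the lower of the pair, with overlapping intervals. Without that array the Vmn1r share of receptor peaks was 31.5% in WT (19.5 to 45.55%) and 50.0% in KO (33.4 to 66.6%). These intervals overlap too, and the difference was not tested.

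Pseudogenes, marked by symbols ending in -ps and digits, took 17 of 65 receptor peaks in WT (26.2%, 16.0 to 38.5%) and 19 of 49 in KO (38.8%, 25.2 to 53.8%). Their share of the annotated receptor genes was 41.4%, above the WT interval and within the KO interval. That share counts genes, and the pseudogene share of the array length is not given here. The part of gene length in the pseudogene shares was not tested. In KO 11 of the 19 Vmn2r peaks (57.9%, 33.5 to 79.75%) had a pseudogene symbol as their receptor gene, and in WT 9 of 37 (24.3%, 11.8 to 41.2%). The intervals overlap, and the difference was not tested. By the GENCODE M21 gene type the KO count was 10 of 19, since Vmn2r-ps159 is listed there as protein-coding. By gene, 16 of 232 pseudogenes were nearest to a WT peak (6.90%, 3.99 to 10.96%) and 40 of the 329 other receptor genes (12.2%, 8.83 to 16.2%). In KO these were 18 of 232 (7.76%) and 25 of 329 (7.60%). Pseudogenes of both families are mostly remnants of duplication without an intact reading frame.

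Receptor peaks lay nearer to a gene start than peaks in general, in arrays where starts are dense. The median distance between peak midpoint and start was 9506 bp in WT (4843 to 11223 bp) and 7829 bp in KO (6214 to 11293 bp), against 28858 and 28499 bp over all autosomal peaks. Olfactory receptor peaks lay closer still, at medians of 3809 bp in WT and 4750 bp in KO. Vmn1r peaks were at a median of 4520 bp in WT and 6480 bp in KO, and Vmn2r peaks at 15521 and 11112 bp. Upstream of the start lay 22 of 65 receptor peaks in WT (33.8%, 22.6 to 46.65%) and 20 of 49 in KO (40.8%, 27.0 to 55.8%), where the autosomal shares were 46.9 and 47.3%.

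**Figure D3:**
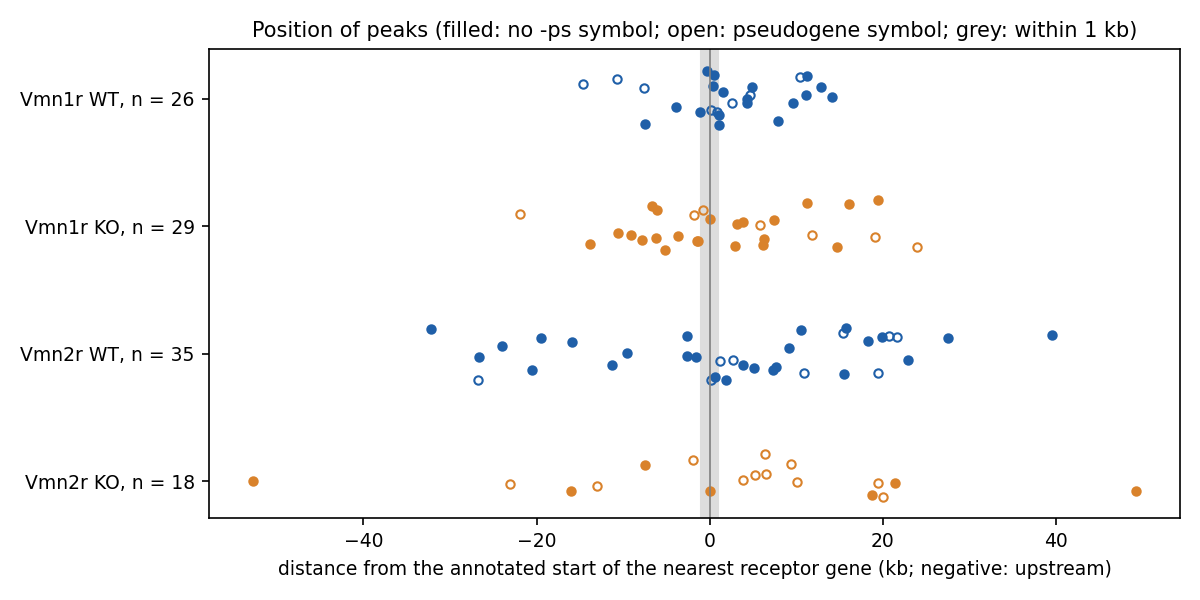
Signed distance in kb from the annotated start of the nearest receptor gene for the 61 WT and 47 KO peaks whose nearest gene is a receptor, by family (filled for genes, open for pseudogene symbols, grey band for 1 kb on either side). No Vmn1r peak is farther than 23975 bp from the start, and the farthest Vmn2r peak, a KO peak, is 52727 bp upstream.

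Within 1000 bp of a start lay 8 of 65 WT receptor peaks (12.3%, 5.47 to 22.8%) and 3 of 49 KO receptor peaks (6.12%, 1.28 to 16.9%), while the whole autosomal lists had 2.74% in WT and 2.56% in KO there. One of the 8 WT peaks, inside a Vmn1r21 intron, was 621 bp from the start of another gene, Gm44114. The remaining 7 were at receptor starts. Before the start lay Vmn1r157 (283 bp, fold 4.80). After the start lay Vmn1r-ps78 (114 bp, fold 3.35), Vmn2r-ps86 (212 bp, fold 2.98), Vmn1r123 (413 bp, fold 3.50), Vmn1r10 (494 bp, fold 3.50), Vmn2r53 (666 bp, fold 3.00) and Vmn1r-ps34 (821 bp, fold 3.46). In KO the 3 were Vmn1r44 (44 bp after the start, fold 2.93), Vmn2r2 (93 bp after, in the 5′ UTR, fold 3.42) and Vmn1r-ps53 (813 bp before, fold 3.01). No receptor gene had such a peak in both lists. Of these 10 genes, 4 are pseudogenes, and Vmn1r157 alone passed a q of 0.05.

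By the authors' features, 29 WT receptor peaks were intergenic, 23 in an intron, 7 in an exon, 3 in a promoter and 2 in a 3′ UTR, and 1 lay in another gene. In KO 28 were intergenic, 11 in an intron, 5 in a promoter, 3 in a 3′ UTR, 1 in a 5′ UTR and 1 in another gene, and none was labelled exon. Protein-coding sequence of GENCODE M21 was touched by 8 of 65 WT receptor peaks (12.3%, 5.47 to 22.8%) and by 0 of 49 KO receptor peaks (exact upper bound 7.25%). Over all autosomal peaks the shares were 1.74% in WT and 1.99% in KO. The 8 WT genes, named after their values were seen, were Vmn2r3, Vmn2r16, Vmn2r32, Vmn2r44, Vmn1r80, Vmn1r123, Vmn2r77 and Vmn1r215. In Vmn2r44, Vmn1r80 and Vmn1r123 every base of the peak was coding, and the authors' feature for Vmn1r80 was intron, so their gene models differ from M21 there. The difference between the lists rests on 1 library each and has no test.

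No receptor peak of either list overlapped a peak of the other, 65 of 65 in WT (exact lower bound 94.5%) and 49 of 49 in KO (92.75%). The same held for 99% of all autosomal WT peaks and 98.9% of the KO ones, shares close to those of the receptor peaks. The median distance to the nearest peak of the other list was 162 kb for WT and 161 kb for KO receptor peaks, beside 144 and 136 kb over the autosomes. Peaks of both lists had the same receptor gene as nearest gene for 4 of 561 genes (0.713%, 0.195 to 1.82%), beside 2.31% of all autosomal genes. Gene starts are dense in the arrays, and the part of gene spacing in this difference was not tested. At Vmn1r101 the closest WT and KO peaks were 3323 bp apart, at Vmn1r-ps19 they were 3972 bp apart, at Vmn1r226 11753 bp and at Vmn2r-ps25 15704 bp. KO peaks made up 43.0% of the receptor peaks (33.75 to 52.6%) and 49.2% of all autosomal peaks.

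Receptor peaks often lay in sequence with near-identical copies. A copy is here another place in GRCm38 with at least 95% identity over at least 90% of the peak. Of the receptor peaks, 20 of 65 in WT (30.8%, 19.9 to 43.5%) and 23 of 49 in KO (46.9%, 32.5 to 61.7%) had at least 1 copy. In a systematic sample of autosomal peaks, 1 in every 5, the shares were 13.8% of 1058 WT peaks and 18.6% of 1024 KO peaks. The copies were of 2 kinds. For 18 of the 43 receptor peaks every copy lay in the same array, and for others the copies ran through the genome, up to 23141 for the KO peak of Vmn1r60, which was 100% masked. More than 100 copies were found for 8 WT and 10 KO receptor peaks.

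In the chromosome 7 Vmn1r array nearly every peak had a copy. All 17 WT peaks in it and 27 of 28 KO peaks had a copy, 44 of 45 together (97.8%, 88.2 to 99.9%), and in the other arrays 52 of 147 peaks had one (35.4%, 27.7 to 43.7%). In the chromosome 6 array of 44 Vmn1r genes none of 11 peaks had a copy, and in the chromosome 17 array of 60 genes 3 of 25. All 9 peaks in the chromosome 13 array of 11 Vmn2r pseudogenes had one, and none of these was a receptor peak. Without peaks that have copies, 45 WT and 26 KO receptor peaks remain. A short read from such a place can match several sites equally well, and how the authors placed reads with several matches is not given in the sources used here. The part of read placement in these peaks was not tested.

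The Vmn1r157 sequence printed first shows how close the copies are. It had 23 copies, all in the same array, at 97.0 to 100% identity, and 3 were identical over all 234 bases. Of the copies, 21 lay before the start of another Vmn1r gene within 100 bp of the same distance, with a median of 284 bp. Identical sequence stands before Vmn1r112 and Vmn1r132, and neither had a peak there in either list. The copies before Vmn1r125 (2 mismatches), Vmn1r148 (3) and Vmn1r95 (7) are given with capitals at the bases that differ from the Vmn1r157 peak.
Vmn1r125 chr7:21271776-21272009: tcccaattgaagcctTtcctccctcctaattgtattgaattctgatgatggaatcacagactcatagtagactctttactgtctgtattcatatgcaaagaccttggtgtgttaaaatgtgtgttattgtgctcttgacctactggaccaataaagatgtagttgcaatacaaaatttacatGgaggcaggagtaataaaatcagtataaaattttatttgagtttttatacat
Vmn1r148 chr7:22413183-22413416: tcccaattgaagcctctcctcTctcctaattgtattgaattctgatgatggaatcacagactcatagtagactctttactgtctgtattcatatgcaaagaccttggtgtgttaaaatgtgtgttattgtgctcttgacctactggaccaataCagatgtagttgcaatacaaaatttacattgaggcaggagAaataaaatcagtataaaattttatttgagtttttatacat
Vmn1r95 chr7:20193310-20193543: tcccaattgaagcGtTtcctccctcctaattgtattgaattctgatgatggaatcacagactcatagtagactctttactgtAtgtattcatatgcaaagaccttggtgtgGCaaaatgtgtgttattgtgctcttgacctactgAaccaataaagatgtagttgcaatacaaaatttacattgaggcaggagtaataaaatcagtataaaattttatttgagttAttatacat

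In this array 13 receptor peaks had all their copies inside it, and in 5 of the 13 most copies kept the peak's own distance from a Vmn1r start within 100 bp. Besides Vmn1r157 these were the peaks of Vmn1r123, Vmn1r-ps78, Vmn1r103 and Vmn1r159, the last with 7 of 10 copies at its own distance. The Vmn1r123 peak, wholly coding, had 20 copies at 95.8 to 100% identity, 19 of them within 100 bp of its own distance from a Vmn1r start. The Vmn1r-ps78 peak had 72 copies, 48 at its own distance. The Vmn1r103 peak, 1162 bp upstream, had 42 copies, 32 of them at a like distance. Outside these 5 fell the peaks of Vmn1r158, Vmn1r166, Vmn1r-ps79, Vmn1r100, Vmn1r101 and Vmn1r165. The WT peak of Vmn1r158 had 4 of 8 copies at a like distance. The KO peaks of Vmn1r166 and Vmn1r-ps79 had 6 of 12 and 5 of 11, near the limit. The Vmn1r100 peak of the KO list, 7829 bp upstream, had 16 copies, 7 at a like distance. At Vmn1r101 the like-distance counts were 3 of 16 and 3 of 15 copies for the WT peaks and 4 of 11 for the KO peak, and at Vmn1r165 2 of 14. In the large mixed array the WT peak of Vmn2r44 had 34 copies near 24 receptor genes, 8 of them at a like distance, and in none of its 4 Vmn2r peaks with local copies did most copies keep the distance. By contrast, 4 of the 5 WT peaks with q below 0.05 had no copy, Vmn1r157 being the exception. In KO, Vmn2r120 and the chromosome 18 peak had none, and Vmn2r-ps25, Vmn1r-ps73 and Vmn1r100 had 1044, 83 and 16.

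For 19 receptor peaks, 9 in WT and 10 in KO, a copy lay on another peak. The share of all autosomal peaks with such a copy is not given here, so this count has no comparison. The KO peak of Vmn1r60, with 23141 copies, had 132 on other peaks, and the KO peak of Vmn2r20, with 80 copies, had 2. The part of copy number in this count was not tested. Among receptor peaks, the WT peak at Vmn2r-ps26 on chromosome 5 matched the KO peak at Vmn1r168 on chromosome 7 at 98.8% identity. The WT peak at Vmn2r69 on chromosome 7 matched the KO peak at Vmn2r20 on chromosome 6 at 99.02%. The WT peak at Vmn2r82 on chromosome 10 matched the KO peak at Vmn1r114 on chromosome 7 at 95.7%. These 6 peaks lay in sequence that is 100% masked, and each pair joins a WT peak near 1 receptor gene to a KO peak near another.

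**Figure D4:**
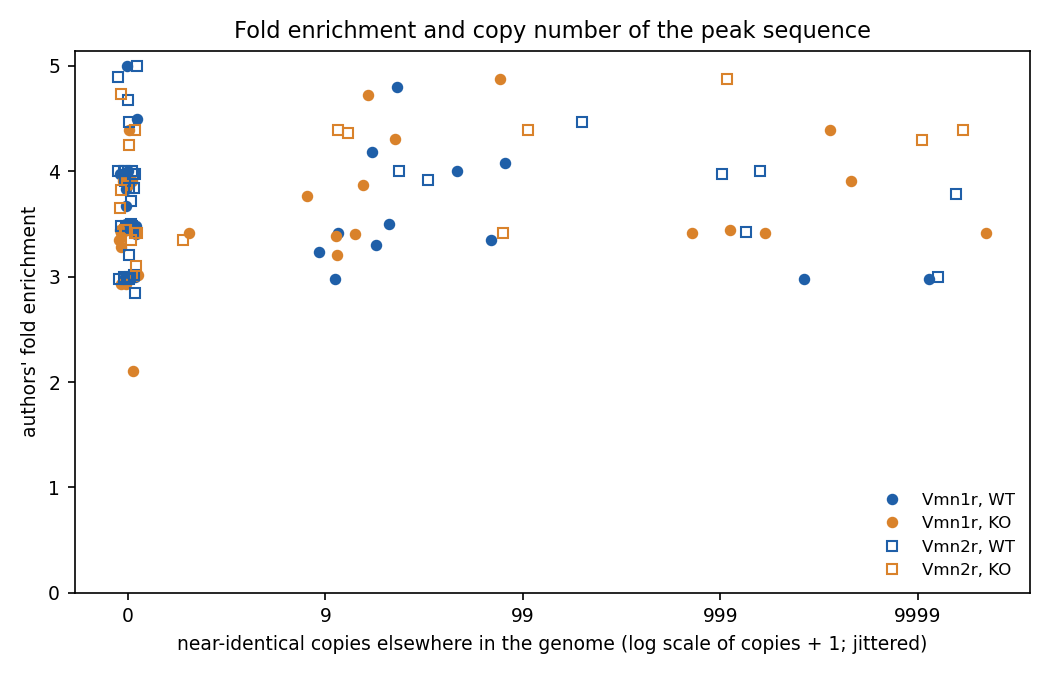
The authors' fold enrichment of each receptor peak against its number of near-identical copies, on a log scale of copies + 1 with horizontal jitter (Vmn1r filled circles, Vmn2r open squares, WT blue, KO orange). Peaks with copies have folds from 2.98 to 4.88, and the 71 peaks with none stand at the left.

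The 20 WT peaks with copies had a median fold of 3.64 (3.31 to 3.999) and the 45 without 3.48 (3.46 to 3.84). In KO the 23 peaks with copies had a median of 3.87 (3.42 to 4.39) and the 26 without 3.42 (3.28 to 3.82), and 7 of the 10 highest KO folds belonged to peaks with copies, against 4 of 10 in WT. The intervals overlap in both lists. Repeat-masked bases made up a median of 41.1% of a WT and 47.9% of a KO receptor peak, against 21.9 and 22.8% over the autosomes. GC content had a median of 35.9% in WT (33.3 to 37.1%) and 38.5% in KO (36.0 to 40.2%), near the autosomal 37.2 and 39.0%.

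The ETS motif was sought in each peak. Within 100 bp of the summit on either strand, the site CCGGAAGT, a high-affinity site for ELF-type ETS factors, was found in 0 of 65 WT and 0 of 49 KO receptor peaks, which leaves exact upper bounds of 5.52 and 7.25%. Over all autosomal peaks it was found in 0.132% of WT and 0.0586% of KO peaks, so a share as low as that could not be seen at these numbers. The bare core GGAA, short enough to occur often in any sequence, was present in 87.7% of WT (77.2 to 94.5%) and 89.8% of KO (77.8 to 96.6%) receptor peaks, and in 86.5 and 88.7% of all autosomal peaks. In the printed sequences the number of cores ranged from 0 in the Vmn2r81 peak to 4 in the Vmn1r123 peak.

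Genes that work with the receptors were counted from fixed lists. Of 29 signalling and partner genes of vomeronasal neurons, among them the channel gene Trpc2 and the G protein genes Gnai2 and Gnao1, 1 was nearest to a WT peak and none to a KO peak (exact upper bound 11.9%). It was Kirrel3, an adhesion molecule of vomeronasal axons, with a fold of 4.13 at -6766 bp from its start. Of 5 formyl peptide receptor genes that vomeronasal neurons carry, Fpr-rs4 was nearest to a WT peak and none to a KO peak. Of 9 H2-M genes, histocompatibility genes expressed with Vmn2r receptors, 3 were nearest to a WT peak (H2-M10.1, H2-M10.4 and H2-M11) and 1 to a KO peak (H2-M10.4). The 2 H2-M10.4 peaks did not overlap. WT shares were 3.45% (0.0873 to 17.8%) of the signalling genes and 20% (0.505 to 71.6%) of the formyl peptide receptor genes. For H2-M genes they were 33.3% (7.485 to 70.1%) in WT and 11.1% (0.281 to 48.25%) in KO. The exact upper bound for the formyl peptide receptor genes in KO was 52.2%. All these intervals and bounds include the share of all genes, 8.39% in WT and 8.21% in KO. The macrophage list held 22 genes, of which 1 was not among the autosomal genes of the annotation. Of the other 21, 1 was nearest to a WT peak (Adgre1) and 1 to a KO peak (Tlr4). Each is a share of 4.76% (0.121 to 23.8%). The interval includes both the 8.39 and 8.21% of all genes and the shares of the receptor genes.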

How the data were processed

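The WT and KO peak lists were analysed; the 2 inputs enter only through the authors' peak calling. Members, gene lists and rules were chosen with earlier results of these data known. The series' design text gives the authors' read processing as Trimmomatic 0.36, then Bowtie2 against GRCm38, then SAMtools rmdup. The submitters' processing notes name the builds GRCm38 and mm10. The sources used here name no peak caller, threshold or annotation tool. Per the file headers, each deposited peak has a pileup signal, a fold enrichment (a ratio to local input), a −log10 p-value and a −log10 q-value, with its gene features, nearest gene and distance. No deposited −log10 p was below 3. These are the authors' own peak values, called for each library separately and used within a list only.

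The input background was recovered as (pileup + 1)/fold − 1, and a Poisson tail at that background matched the deposited −log10 p within 0.01 for 100% of autosomal peaks. Of 10405 autosomal peaks, 99.8% had their nearest gene in GENCODE M21, 97.6% of these with identical coordinates (84.8% of 105 receptor peaks). Distances equalled midpoint to start within 2 bp in 100%. Positions are GRCm38, 1-based, and sequence and repeat masking come from the RefSeq GRCm38.p6 genome. Copies were sought with blastn 2.17.0 with low-complexity filtering; 15 of 2245 searched peaks, none of them a receptor peak, were not found at their own place. Shares carry exact Clopper-Pearson intervals, counts exact Poisson intervals, medians order-statistic intervals and density ratios exact conditional intervals. Scripts used Python 3.11.15 and SciPy 1.17.1 and were tested on simulated data. Depth is unknown, which limits what a missing peak can say.

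Named genes followed a rule: receptor genes with a peak within 1000 bp of the start, with at least 3 peaks of 1 list or with peaks in both lists, the 10 receptor peaks of highest fold in each list, and those with q below 0.05. Names outside the rule were added after their values were seen. Alternatives changed how members, thresholds, array gaps, overlap and promoter limits were set.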

Additional observations from a re-analysis of the deposited data

How the results depend on the processing

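Of 64 alternative settings over 16 results, 53 stayed near the reported value and 11 moved; 18 settings were chosen after seeing the data. Counting only listed gene features gave 35 WT and 20 KO receptor peaks. Requiring q below 0.05 gave 5 in each list. Requiring −log10 p of at least 4 gave 30 in KO, with array densities of 2.35 per Mb in WT and 1.76 in KO. No autosomal density at that p limit is given, so these densities cannot be set beside the autosomal densities above, which count all peaks. A promoter limit of 5 kb gave 24 WT and 12 KO peaks. Leaving out peaks with near-identical copies gave 26 in KO. Without the chromosome 7 Vmn1r array the KO density was 2.36 per Mb. The fall under stricter thresholds, narrower rules and without peaks with copies follows from keeping fewer peaks. The rise under the 5 kb limit follows from the wider window. The lower KO density without the chromosome 7 Vmn1r array follows from leaving out an array singled out for its high KO density. Why that array held more KO peaks per Mb was not tested. No setting gave a receptor peak that overlapped the other list. No paired analysis was possible because each genotype has 1 IP library and no test was made between them. Depth is unknown, so a missing peak does not show missing binding.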
